A study of Mus musculus with 8 samples.

Results

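Nuclear receptors are transcription factors that carry a DNA-binding domain and a ligand-binding domain, and most of them read a fat-soluble signal such as a steroid, a retinoid, thyroid hormone, an oxysterol or a bile acid. The genes described here are 34 nuclear receptors chosen by symbol out of the 35275 genes in the deposited expression table of a mouse kidney study. They leave out the PPAR, vitamin D, mineralocorticoid and core clock receptors. Each of the 34 symbols matched 1 row of the table. A mean of at least 1 FPKM (fragments scaled to gene length and to the depth of the library) was required for a test, and 24 of the 34 reached it. The remaining 10 (Rxrg, Nr1i3, Nr2f1, Nr2e3, Nr5a2, Nr6a1, Rorb, Nr4a2, Nr4a3 and Pgr) are given by their levels and reads.

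Left kidneys of 8 male mice, 40 weeks old, gave the RNA. All had eaten a high-fat diet with 60% of its calories from fat since the age of 6 weeks. Of these, 4 carried a homozygous deletion in C1qtnf1 (Ctrp1-/-, called KO), the gene of the secreted protein CTRP1, and 4 were wild-type littermates (WT), all born to heterozygous parents on a C57BL/6J background. The deletion took away 679 bp with the coding part of exon 4, in every cell of the body, and came from 129S5/Sv embryonic stem cells, followed by more than 6 generations of backcrossing. Each library was from a different mouse, and replicate numbers only name the mice. No group was fed another diet, so both genotypes share the high-fat state.

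In the kidney these receptors have distinct places and roles. HNF4A holds the differentiated state of the proximal tubule, the estrogen-related receptors drive genes of mitochondrial respiration, the glucocorticoid receptor answers to corticosterone, and the liver X and farnesoid X receptors read oxysterols and bile acids. Retinoid X receptors pair with many of the others, so that their level bears on several hormone pathways at once. A nuclear receptor can also change its activity with its ligand or by modification of the protein, without a change in its mRNA, and only mRNA was measured here.

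The libraries held 17884140 to 20344859 reads, worked out from the steps between low FPKM values. C1qtnf1 checked the labels: it stood at 5.27 to 5.55 FPKM in WT and at 0.322 to 0.883 FPKM in KO, a log2 difference of -1.998 ± 0.11 (SE, limma, adjusted p = 2.35e-05, n = 4 and 4). Markers of proximal tubule segments S1 and S2 summed to 3746 to 4974 FPKM, whereas 6 adrenal cortex markers summed to 0.66 to 1.19 FPKM with Cyp11b2 at 0 in all 8 mice. The library of KO replicate 2 stood apart. Against the mean of the other mice, the median of the shortest of 4 length classes was higher by 0.36 on the log2 scale and the median of the longest class differed by -0.34, while the other 7 libraries stayed between -0.11 and 0.08. Its 22 immediate early genes, which rise with handling and stress, summed to 746 FPKM, against 213 to 328 FPKM in the others. Urothelial markers differed by genotype, with a sum of 3.34 to 8.73 FPKM in WT and 13.3 to 31.2 FPKM in KO, a positive difference in 5 of 5 tested and none past the threshold. Macrophage markers summed to 159 FPKM in KO replicate 4 and to 81.9 to 109.5 FPKM in the other 7. In KO replicate 2 the S1 and S2 markers summed to 3746 FPKM and the endothelium markers to 60.1 FPKM, the lowest of all mice. Its principal cell markers summed to 569 FPKM, the only marker list in which that library was the highest. None of the 15 lists of cell type markers held a gene past the threshold, 29 of their 66 tested genes had a positive difference, and Prss1 of the liver and pancreas list was at 0 in all mice. Many values below are also given without KO replicate 2. The part of the urothelial or any other of these markers in a receptor's value was not tested.

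Between the genotypes, no receptor passed the threshold: 0 of 24 had an adjusted p under 0.05 by limma with Benjamini-Hochberg adjustment over all 12118 tested genes, where 5 genes did (0.0413%), 2 of them higher in KO (0.0165%) and 3 lower (0.0248%). At an unadjusted p under 0.05 there were 3 receptors of 24, Nr2f6 with a higher mean in KO and Nr1i2 and Esrrg with lower ones, against a background of 3.48% of all genes higher, 2.47% lower and 5.95% in either direction. The direction was even, with 12 of 24 differences above 0 and 12 below, and the median difference was -0.0016 on the log2 scale against -0.0097 over all genes. All 4 KO mice lay on the same side of all 4 WT mice for 2 of 24 receptors, Nr1h3 above and Esrrg below, against a background of 2.33% above, 2.83% below and 5.16% in either direction. The 95% interval reached neither 1.5-fold higher nor 1.5-fold lower for 22 of the 24, the exceptions being Nr1i2 and Nr2c2. These intervals are on the log2(FPKM + 1) scale, which understates the change of low genes. In whole-kidney RNA, fewer cells of a type and less RNA per cell cannot be told apart.

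**Figure D1:**
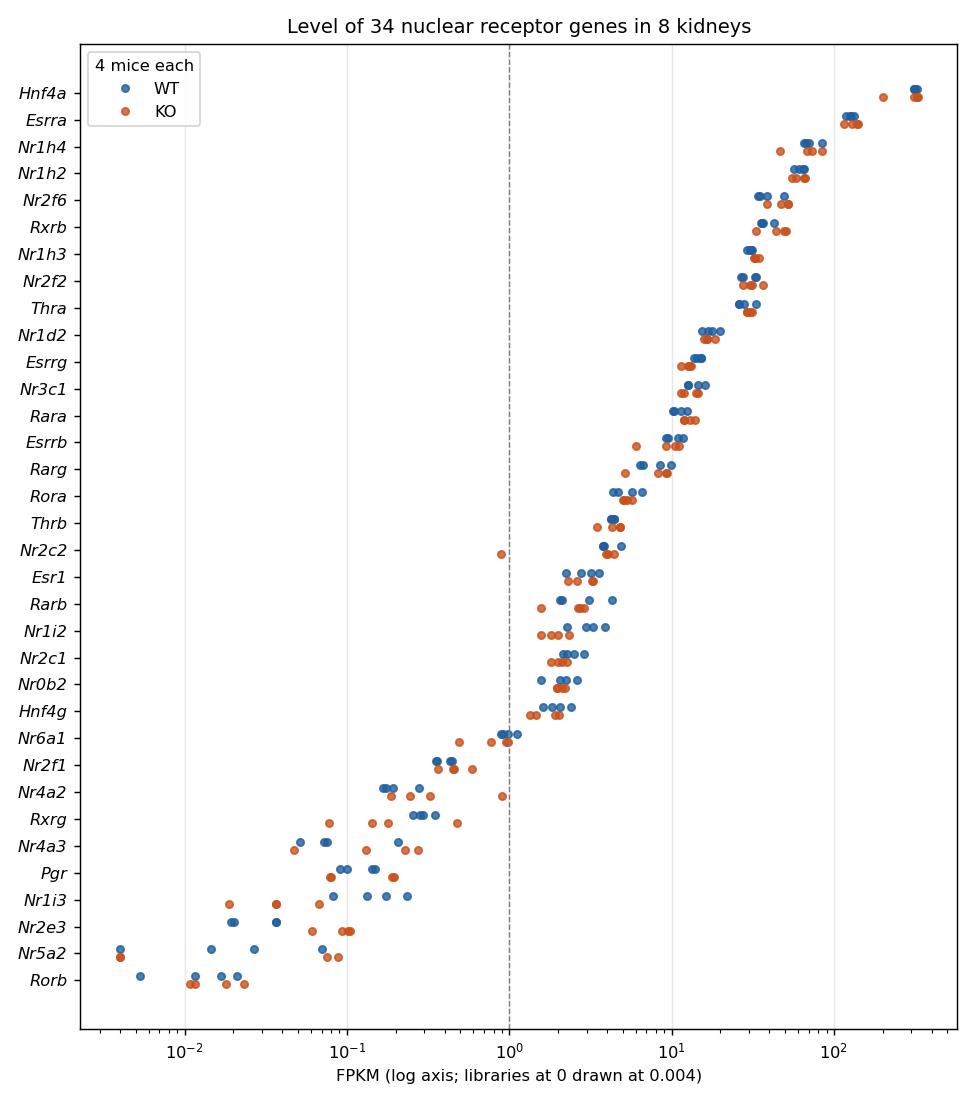
Level of each of the 34 receptor genes in each mouse (FPKM, log axis), with WT and KO mice in separate colours and the dashed line at the mean of 1 FPKM needed for a test. Hnf4a stands highest at a mean of 303 FPKM over 8 mice, and the WT and KO points of most receptors lie over each other.

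The receptors covered a wide span of levels. Hnf4a had the highest mean over the 8 mice, 303 FPKM, followed by Esrra at 129 FPKM, and the ranges of these 2 did not overlap. Nr1h4 at 70.0 FPKM and Nr1h2 at 61.5 FPKM came next and overlapped each other, with Nr1h4 the higher in 7 of 8 mice. A middle group was formed by Nr2f6 (43.4 FPKM), Rxrb (41.0 FPKM), Nr1h3 (31.8 FPKM), Nr2f2 (30.8 FPKM) and Thra (29.1 FPKM), in which each neighbour overlapped the next. Nr1d2 stood clear of both its neighbours at 17.1 FPKM. From Esrrg (13.5 FPKM), Nr3c1 (13.5 FPKM) and Rara (11.9 FPKM) down to Hnf4g (1.83 FPKM) every neighbouring pair overlapped. A gap without overlap then separated Hnf4g from the 10 receptors under the filter, of which Nr6a1 was the highest at 0.888 FPKM and Rorb the lowest at 0.0148 FPKM. Hnf4a was above 99.2% of the genes with a value above 0, and Rorb above 9.61% of them.

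Many receptors of this class recognise the half-site AGGTCA, and receptor genes can themselves be targets of receptors. The 300-base windows around transcript starts (250 bases before, 50 after) were searched for it on both strands. The table of RefSeq promoters on GRCm38.p6 held 31 of the 34 receptor genes in 49 windows, and 8 windows contained the half-site (16.3%), against 5340 of 32851 windows of all genes (16.3%). These were in Nr1d2, Nr1h4, Nr5a2, Nr6a1, Rara, Rarg, Rxrg and Thrb. The matches of the 4 among them that were tested and have the match before a listed transcript start are shown. Such a start can lie inside the gene. Each match is given as 30 bases in the direction of the gene, 5′ to 3′, with the half-site or its reverse complement in capitals:

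Nr1d2: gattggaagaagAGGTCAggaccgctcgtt

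Nr1h4: ccgtgtggcattTGACCTccagccagtctt

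Rarg: agcccaggacacTGACCTctgccagctctg

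Thrb: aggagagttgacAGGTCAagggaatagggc

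The Nr1d2 stretch was at chr14:18239166-18239195 on the minus strand, with the half-site 77 to 72 bases before the start. For Nr1h4 it was at chr10:89506855-89506884 on the minus strand, 214 to 209 bases before. That start lies inside Nr1h4, whose 5′ end in the GENCODE M21 annotation is at 89533585. The Rarg stretch, also on the minus strand, was at chr15:102257730-102257759, 225 to 220 bases before. The Thrb stretch was at chr14:17660764-17660793 on the plus strand, 184 to 179 bases before. That start also lies inside the gene, as Thrb begins at 17660261. The other motifs searched, each of which contains the half-site, were 2 half-sites in the same direction spaced by 1 base or by 4 bases, and the half-site preceded by the letters TCA, as the estrogen-related receptors prefer. None of these was found in a receptor's window, and they were in 0.0396%, 0.0152% and 0.423% of all windows. The paired half-sites of the glucocorticoid receptor (ACA and TGT spaced by 3 bases, then any base and CT) were likewise in no receptor's window and in 1.31% of all windows. A match is a stretch of letters and was not tied to binding in these data.

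**Figure D2:**
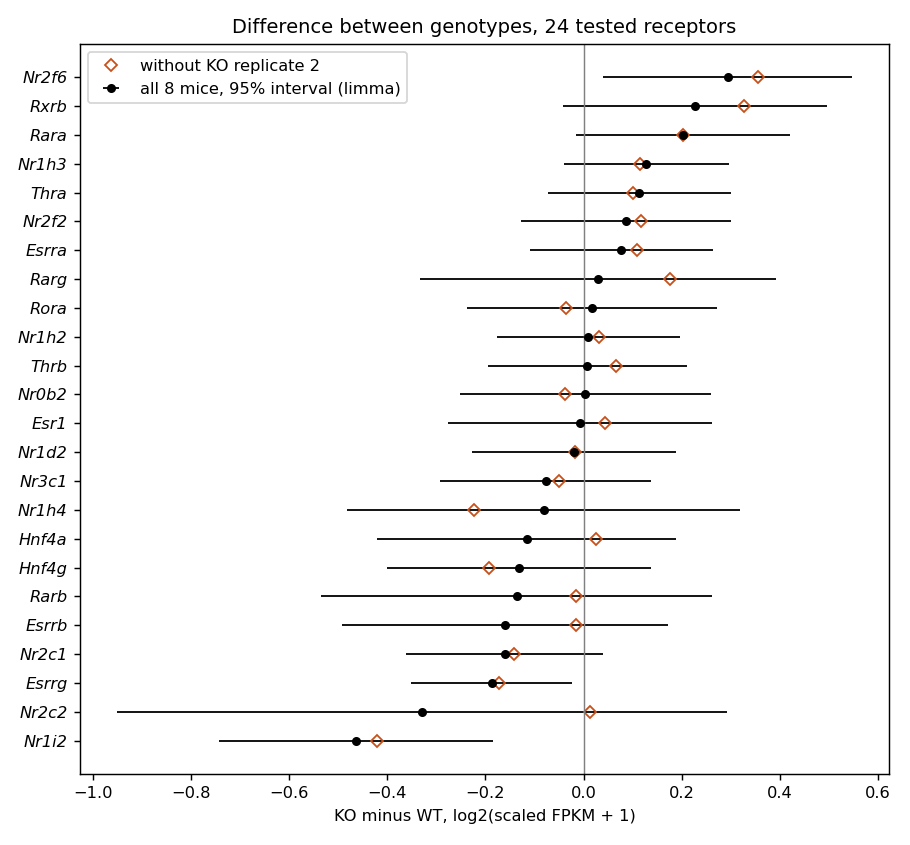
Difference KO minus WT for the 24 tested receptors on the log2(scaled FPKM + 1) scale, with the 95% interval of limma over all 8 mice and the value without KO replicate 2 as a second mark. Nr1i2 lies lowest at -0.46 and Nr2f6 highest at 0.29, and Nr2c2 moves from -0.33 to 0.01 when KO replicate 2 is left out.

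The HNF4 receptors, constitutively active factors of proximal tubule and liver identity, did not pass the threshold. Hnf4a (chromosome 2) was at 312, 309.9, 314 and 324 FPKM in the 4 WT mice and at 327, 201, 326 and 313 FPKM in the 4 KO mice. Apart from KO replicate 2, all 7 mice lay within 309.9 to 327 FPKM, and KO replicate 2 was the lowest of all. The group means were 315 ± 6.27 and 292 ± 61.2 FPKM (SD, n = 4), a log2 difference of -0.12 ± 0.14 (SE, limma, adjusted p = 0.88), which became 0.03 without KO replicate 2 (adjusted p = 0.92). Hnf4g, the second HNF4 gene, made up 0.62% of the HNF4 sum in WT and 0.61% in KO. Its mean was 1.97 ± 0.328 FPKM in WT and 1.68 ± 0.333 FPKM in KO (adjusted p = 0.87), from 100 to 201 reads a library, and the groups overlapped. Of 18 HNF4 target genes of the proximal tubule, 7 had a positive difference and none passed, with a median of -0.08 (-0.05 without KO replicate 2) against -0.0097 over all genes. Slc2a2, a basolateral glucose transporter, had means of 101 and 88.4 FPKM in WT and KO, and Amn, a partner of cubilin in protein uptake, 195 and 227 FPKM. Both were apart between the groups, with adjusted p of 0.82 each by limma.

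The estrogen-related receptors bind no known natural hormone and act with PGC-1 coactivators on genes of oxidative metabolism. Esrra made up 83.5% ± 1.24 of their summed FPKM in WT and 85.9% ± 0.733 in KO (SD, n = 4). Its mice ranged from 118 to 132 FPKM in WT and from 116 to 141 FPKM in KO, so that the KO range enclosed the WT range (log2 difference 0.08 ± 0.08, adjusted p = 0.87, limma). Esrrg was at 15.3, 13.7, 14.2 and 15.1 FPKM in WT and at 12.8, 11.4, 12.7 and 13.2 FPKM in KO. Every KO mouse lay below every WT mouse, by a margin of less than the spread within either group. The means were 14.6 ± 0.746 and 12.5 ± 0.779 FPKM, and the log2 difference of -0.19 ± 0.07 had a 95% interval of -0.35 to -0.02, an unadjusted p of 0.029 and an adjusted p of 0.78 by limma. Without KO replicate 2 the difference was -0.17, with an adjusted p of 0.35. Leaving out any 1 mouse gave -0.21 to -0.16 on the log2 scale with an unadjusted p of 0.019 to 0.092.

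Esrrb is the least abundant of these 3. It stood at 11.0, 9.22, 9.50 and 11.8 FPKM in WT and at 9.23, 6.04, 10.5 and 11.2 FPKM in KO. The 3 other KO mice lay within the WT range, and KO replicate 2 lay below all mice. The log2 difference was -0.16 ± 0.15 (adjusted p = 0.87, limma) with all mice and -0.01 without KO replicate 2. Of 19 tested ERR targets and partners, among them enzymes of the citric acid cycle and subunits of the respiratory chain, 10 had a positive difference and none passed. Their median was 0.03 on the log2 scale, and -0.03 without KO replicate 2. The 2 with the lowest p were Esrrg itself and Ndufs1, the largest subunit of respiratory complex I, with means of 77.9 ± 3.35 FPKM in WT and 69.4 ± 4.52 FPKM in KO (adjusted p = 0.86).

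Nr3c1, the glucocorticoid receptor, was at 16.1, 14.5, 12.6 and 12.7 FPKM in WT and at 14.2, 11.4, 14.5 and 11.9 FPKM in KO. The groups overlapped over most of their range, with a log2 difference of -0.08 ± 0.10 (adjusted p = 0.88, limma). A list of glucocorticoid targets and the enzymes that activate or inactivate corticosterone also held the receptor chaperones Fkbp4 and Hsp90ab1. It had a positive difference in 14 of 18 tested, both chaperones among them, and none past the threshold. The median was 0.17 (0.11 without KO replicate 2) against -0.0097 over all genes. Fkbp4, a cochaperone of steroid receptors, ranged from 119 to 124 FPKM in WT and from 131 to 149 FPKM in KO without overlap, a log2 difference of 0.22 ± 0.08 (adjusted p = 0.75). Klf9, a transcription factor that answers to glucocorticoid and to thyroid hormone, had means of 74.2 ± 11.6 and 89.9 ± 5.88 FPKM (adjusted p = 0.78). The immediate early genes, some of which are also glucocorticoid targets, were positive in 15 of 15 tested with a median of 0.56, or 0.19 without KO replicate 2. Jund (adjusted p = 0.67) and Klf2 (adjusted p = 0.80) had the lowest p among them, and the log2 difference of Klf2 went from 0.43 to 0.28 without KO replicate 2. Their part in the glucocorticoid values was not tested.

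**Figure D3:**
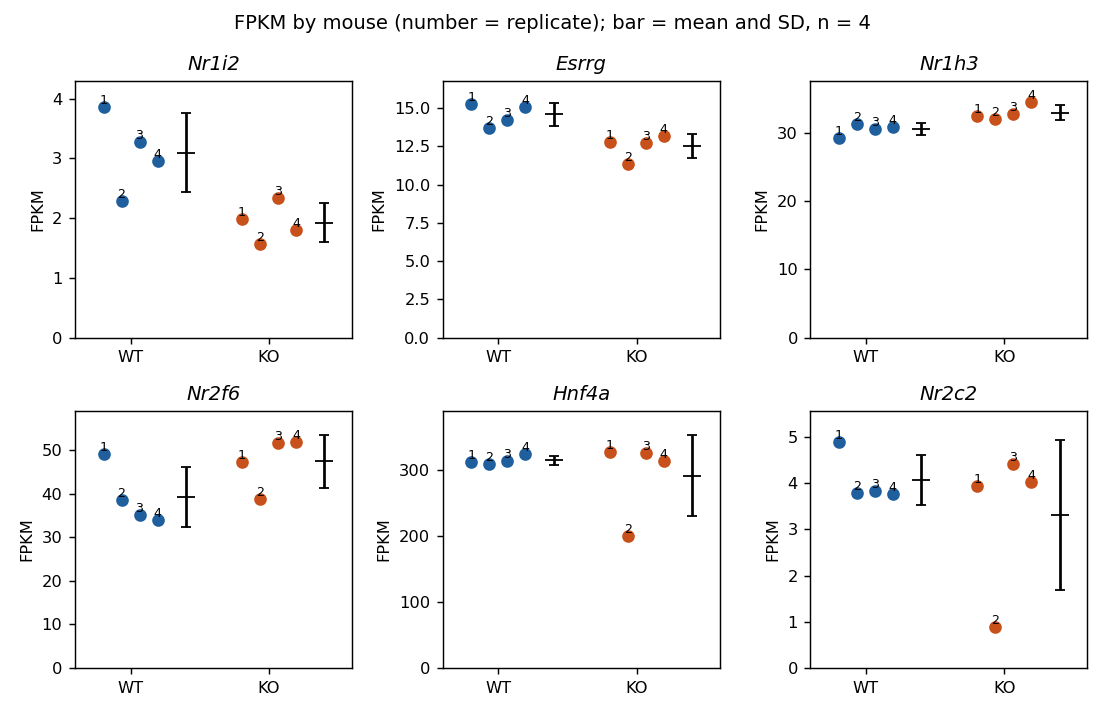
Values of single receptors in each mouse (FPKM), with points numbered by replicate and the mean with SD (n = 4) beside each group. The KO mice of Esrrg lie below all WT mice and those of Nr1h3 above them, while KO replicate 2 stands apart in Hnf4a (201 FPKM) and Nr2c2 (0.896 FPKM).

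Retinoic acid receptors (RAR) respond to all-trans retinoic acid as heterodimers with a retinoid X receptor (RXR). Rara, on the same chromosome 11 as C1qtnf1, was at 10.2, 11.5, 12.4 and 10.3 FPKM in WT and at 11.9, 12.0, 14.0 and 12.9 FPKM in KO. The KO values were mostly above the WT values, but KO replicates 1 and 2 lay below WT replicate 3. The log2 difference was 0.20 ± 0.10 with a 95% interval of -0.02 to 0.42 (adjusted p = 0.83, limma). Rarg, common in epithelia, had means of 7.85 ± 1.63 and 7.99 ± 1.95 FPKM, with KO replicate 2 the lowest mouse at 5.15 FPKM. Its log2 difference was 0.03 with all mice (adjusted p = 0.98, limma) and 0.18 without KO replicate 2 (adjusted p = 0.61). Rarb, itself a classic target of retinoic acid, was at 4.31, 3.08, 2.11 and 2.04 FPKM in WT and at 2.88, 1.56, 2.74 and 2.64 FPKM in KO. The spread within WT exceeded the difference between the means of 2.88 and 2.45 FPKM (log2 difference -0.14, adjusted p = 0.89, limma). Without KO replicate 2, the lowest of all mice, the KO mean was 2.75 FPKM and the log2 difference -0.02. In the GENCODE M21 annotation, exons of Top2b and Gm48162 on the other strand cover 2020 of the 5265 exon bases of Rarb. The length fitted to its FPKM was 3034 bases, so the overlap as counted is not known. The use of strand in counting is not given in the sources used here, so reads of any overlap cannot be told apart.

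Rxrb, the higher of the 2 RXR genes among the receptors described here, was at 36.1, 43.0, 35.5 and 36.7 FPKM in WT and at 43.7, 33.2, 49.1 and 51.0 FPKM in KO. Rxra is not among these receptors and was not looked at, so the main RXR of the kidney is not named here. On the deposited FPKM 3 of the KO mice lay above all WT mice, and KO replicate 2 lay below them all. On the scaled FPKM of the test, KO replicate 1 and WT replicate 2 crossed. The means were 37.8 ± 3.51 and 44.2 ± 8.01 FPKM, with a log2 difference of 0.23 ± 0.12 and an adjusted p of 0.85 by limma. Without KO replicate 2 the difference was 0.33 with an unadjusted p of 0.0033 and an adjusted p of 0.22, in a fit where 11.4% of 12120 genes had an unadjusted p under 0.05. Rxrg, known from muscle and brain, had 11 to 15 reads in each WT library and 3 to 18 reads in each KO library. At that depth its means of 0.296 and 0.219 FPKM cannot be told from each other.

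The ligand of these receptors is made from retinol by uptake and stepwise oxidation. Of 14 tested genes of retinoid supply and response, 5 had a positive difference and none passed, with a median of -0.09 (-0.07 without KO replicate 2). Stra6, the membrane receptor that takes up retinol from its plasma carrier, was at 1.92, 1.86, 2.08 and 1.77 FPKM in WT and at 1.04, 0.689, 1.39 and 1.22 FPKM in KO. Aldh1a1, a retinaldehyde dehydrogenase that makes retinoic acid, was at 14.9, 10.7, 12.3 and 15.9 FPKM in WT and at 7.33, 9.90, 6.58 and 8.66 FPKM in KO. In both genes every KO mouse lay below every WT mouse. The log2 differences were -0.48 ± 0.11 for Stra6 (adjusted p = 0.34) and -0.64 ± 0.15 for Aldh1a1 (adjusted p = 0.37, limma), and without KO replicate 2 the adjusted p were 0.16 and 0.061. Rdh16 and Aldh1a3, the only others of this list with an unadjusted p under 0.05, were chosen after their values were seen. Rdh16, a retinol dehydrogenase, ranged from 49.5 to 55.6 FPKM in WT and from 34.8 to 42.7 FPKM in KO (adjusted p = 0.38). Aldh1a3, another retinaldehyde dehydrogenase, went the other way, at 0.214 to 1.39 FPKM in WT and 1.21 to 9.28 FPKM in KO (adjusted p = 0.37). Its 2 highest mice, KO replicates 1 and 4, also had the highest urothelial sums, 31.2 and 25.4 FPKM. The part of urothelium in the Aldh1a3 values was not tested.

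The thyroid hormone receptors hold genes down without hormone and turn them on with it. Thra, on chromosome 11 like Rara, had 86.6% of the summed FPKM of both in WT and 87.4% in KO. It ranged from 25.8 to 33.0 FPKM in WT and from 29.02 to 31.3 FPKM in KO, all within the WT range (log2 difference 0.11 ± 0.08, adjusted p = 0.86, limma). Thrb had a mean of 4.34 FPKM in both groups, with an SD of 0.116 in WT and 0.621 in KO (95% interval of the log2 difference -0.19 to 0.21). Its lowest mouse was KO replicate 2 at 3.49 FPKM, and without it the log2 difference went from 0.0075 to 0.07. In M21, exons of Nr1d1 on the other strand overlap 263 of the 4614 exon bases of Thra, but the length fitted to its FPKM was 2452 bases. Thyroid hormone supply and targets had a positive difference in 5 of 11 tested genes, none past the threshold, and a median of -0.0074, or 0.05 without KO replicate 2. Dio1, the deiodinase that makes the active hormone in kidney and liver, ranged from 6.90 to 8.68 FPKM in WT and from 8.999 to 13.2 FPKM in KO, a log2 difference of 0.36 ± 0.13 (adjusted p = 0.75). On the scaled FPKM of the test the groups of Dio1 overlapped.

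The liver X receptors sense oxysterols and turn on cholesterol efflux and fatty acid synthesis. Nr1h3 (LXR alpha) was at 29.3, 31.4, 30.5 and 30.9 FPKM in WT and at 32.5, 32.0, 32.8 and 34.6 FPKM in KO. The groups did not overlap, although WT replicate 2 and KO replicate 2 lay close together, and the means were 30.5 ± 0.866 and 33.0 ± 1.11 FPKM. The log2 difference of 0.13 ± 0.08 had a 95% interval of -0.04 to 0.30, an unadjusted p of 0.12 and an adjusted p of 0.86 by limma. Nr1h2 (LXR beta) ranged from 56.6 to 65.2 FPKM in WT and from 55.1 to 66.6 FPKM in KO, a log2 difference of 0.01 with a 95% interval of -0.18 to 0.20. Nr1h2 made up 66.8% ± 1.78 of the LXR sum in WT and 65.0% ± 1.54 in KO. LXR targets were positive in 9 of 14 tested, none past the threshold, with a median of 0.05 (0.11 without KO replicate 2). Nr1h3 itself is counted among these targets. Lpl, the lipase of circulating triglyceride, had means of 46.2 ± 8.71 and 72.8 ± 21.4 FPKM (adjusted p = 0.73), and Apoe, a lipoprotein component, 359 ± 66.9 and 269.5 ± 46.7 FPKM (adjusted p = 0.80), so the 2 with the lowest p differed in opposite directions.

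Nr1h4, the farnesoid X receptor, is activated by bile acids. It was at 65.6, 69.9, 67.5 and 84.8 FPKM in WT and at 72.8, 84.6, 46.8 and 68.2 FPKM in KO. The lowest value, in KO replicate 3, and the second highest, in KO replicate 2, both belonged to KO, and the other KO mice lay within the WT range. The log2 difference was -0.08 ± 0.18 (adjusted p = 0.93, limma), or -0.22 without KO replicate 2 (adjusted p = 0.63), and it changed sign without WT replicate 4 and without KO replicate 3. Nr0b2 (SHP), which lacks a DNA-binding domain and represses other receptors under FXR, had means of 2.11 ± 0.434 and 2.07 ± 0.118 FPKM from 34 to 60 reads a library. FXR targets and bile acid handling, a list that counts Nr0b2, were positive in 5 of 10 tested, none past the threshold. The median was -0.04 in both fits, and Abcb11 and Fabp6 were at 0 in all 8 mice. Abcc2, an apical export pump, had means of 55.4 ± 3.96 and 43.6 ± 7.23 FPKM without overlap (adjusted p = 0.68), and Abcc4, a related pump, 18.9 ± 5.07 and 13.04 ± 4.39 FPKM (adjusted p = 0.82). Abcc4 was at 6.73 FPKM in KO replicate 2 and at 14.2 to 16.9 FPKM in the other KO mice, and its log2 difference went from -0.52 to -0.28 without that mouse.

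Nr1i2 (PXR) and Nr1i3 (CAR) sense drugs and other foreign compounds, mainly in liver and gut, and induce cytochrome P450 and transport genes. Nr1i2 had the lowest unadjusted p of the 24. Its values were 3.86, 2.28, 3.28 and 2.96 FPKM in WT and 1.99, 1.58, 2.34 and 1.81 FPKM in KO. The 3 highest mice were WT and the 3 lowest KO, and WT replicate 2 and KO replicate 3 crossed. The means were 3.10 ± 0.658 and 1.93 ± 0.322 FPKM from 74 to 200 reads a library, and the log2 difference was -0.46 ± 0.13 with a 95% interval of -0.74 to -0.18, an unadjusted p of 0.0041 and an adjusted p of 0.49 by limma. The difference stayed between -0.56 and -0.39 when any 1 mouse was left out, with an unadjusted p of 0.00083 to 0.015. It was -0.42 without KO replicate 2 (adjusted p = 0.27).

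Nr1i3 was near the limit of detection, with 8, 13, 10 and 5 reads in WT and 1, 2, 2 and 4 reads in KO. Every KO library held fewer reads than every WT library, 36 reads in WT and 9 in KO in all. Without the filter on low values its unadjusted p was 0.0074 and its adjusted p 0.76 by limma. In M21, exons of Tomm40l on the other strand cover 3304 of its 4414 exon bases, but the length fitted to its FPKM was 2980 bases. The overlap as counted is not known, and without strand, reads of the 2 genes cannot be told apart in it. PXR and CAR targets had a positive difference in 3 of 7 tested, none past the threshold, with a median of -0.05 (-0.18 without KO replicate 2). The 3 with an unadjusted p under 0.05 all had lower means in KO. Cyp2c44, an epoxygenase, had 36.0 ± 1.72 and 26.9 ± 4.76 FPKM without overlap (adjusted p = 0.65), and Abcb1a, a drug efflux pump, 2.70 ± 0.484 and 1.88 ± 0.467 FPKM (adjusted p = 0.75). Its close copy Abcb1b, chosen after its values were seen, had 5.35 ± 1.03 and 3.78 ± 0.761 FPKM (adjusted p = 0.75), and reads of the 2 copies may be shared.

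The COUP-TF group are orphan receptors, of which Nr2f2 marks mesenchyme and vessels and Nr2f6 is widely expressed. Nr2f6 was at 49.1, 38.6, 35.2 and 34.1 FPKM in WT and at 47.3, 38.9, 51.8 and 51.9 FPKM in KO. WT replicate 1 stood among the KO mice and KO replicate 2 among the WT mice. The means were 39.3 ± 6.86 and 47.5 ± 6.09 FPKM, a log2 difference of 0.29 ± 0.11 with a 95% interval of 0.04 to 0.55, an unadjusted p of 0.027 and an adjusted p of 0.78 by limma. With array weights, limma weighted each library by its scatter around its own group in these same data. The difference was then 0.42 with an adjusted p of 0.037. Nr2f6 was the 1 receptor past the threshold in that fit, where 59 genes of all (0.487%) were. That fit gave its lowest weights to KO replicate 2 (0.1001) and WT replicate 1 (0.637), for Nr2f6 the lowest KO mouse and the highest WT mouse. Leaving out 1 mouse at a time gave 0.24 to 0.38 and passed the threshold in no case. In M21, exons of Ocel1 on the other strand cover 1622 of the 2983 exon bases of Nr2f6, but the length fitted to its FPKM was 2218 bases. The overlap as counted is not known, and reads of Nr2f6 and Ocel1 cannot be told apart in it.

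Nr2f2 ranged from 26.9 to 33.2 FPKM in WT and from 27.7 to 36.4 FPKM in KO (log2 difference 0.09 ± 0.10, adjusted p = 0.87, limma). It made up 43.2% of the COUP-TF sum in WT and 39.7% in KO. Nr2f1 was far lower, at 0.354 to 0.444 FPKM in WT and 0.366 to 0.592 FPKM in KO, from 21 to 35 reads a library, and the groups overlapped.

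The testicular receptors Nr2c1 and Nr2c2 are orphan receptors that can compete for half-sites. Nr2c2 was at 4.89, 3.78, 3.84 and 3.78 FPKM in WT and at 3.93, 0.896, 4.41 and 4.04 FPKM in KO. A single mouse, KO replicate 2, was 1.37 lower than the mean of the other 7 on the log2 scale, while the longest class of genes, to which Nr2c2 belongs, differed by a median of -0.34. With that mouse the log2 difference between groups was -0.33 ± 0.28, and without it 0.01 (adjusted p = 0.87 and 0.97, limma). In M21, exons of Mrps25 and Gm44249 cover 4657 of the 14935 exon bases of Nr2c2, but the length fitted to its FPKM was 7647 bases. Nr2c1 ranged from 2.16 to 2.91 FPKM in WT and from 1.82 to 2.26 FPKM in KO, with a log2 difference of -0.16 ± 0.09 (adjusted p = 0.86).

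Nr2e3, a photoreceptor factor, had 6 reads in the 4 WT libraries and 18 reads in the 4 KO libraries. Each KO library held 3 to 5 reads and each WT library 1 or 2, and without the filter its unadjusted p was 0.0058 and its adjusted p 0.69 by limma. Nr5a2, a factor of liver and pancreas that can sense phospholipids, had 8 reads in WT and 11 reads in KO, with none in WT replicate 4 and KO replicates 2 and 4. Nr6a1, a germ cell factor, had 109 to 143 reads in WT and 57 to 121 reads in KO, with means of 0.978 and 0.798 FPKM and KO replicate 2 the lowest. Without that mouse the KO mean of Nr6a1 was 0.900 FPKM. Differences in Nr2e3 and Nr5a2 rest on single reads, and none of the 3 passed the threshold without a filter.

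The ROR and REV-ERB receptors bind the same monomeric site with opposite effects on transcription. Rora was at 4.39 to 6.61 FPKM in WT and at 5.05 to 5.68 FPKM in KO, all of the KO mice within the WT range. Its log2 difference was 0.02 with a 95% interval of -0.24 to 0.27. Nr1d2 (REV-ERB beta), a heme sensor, had means of 17.4 ± 1.92 and 16.9 ± 1.23 FPKM and a 95% interval of -0.23 to 0.19 for the log2 difference. Rorb, a receptor of retina and brain, had 10 reads over the WT mice and 11 over the KO mice.

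The NR4A receptors are immediate early genes that need no ligand. Nr4a2 was at 0.276, 0.166, 0.175 and 0.193 FPKM in WT and at 0.188, 0.899, 0.243 and 0.323 FPKM in KO. KO replicate 2, with 59 reads, was 4.02 times the mean of the other 7 mice, and it was also the mouse with the highest sum of immediate early genes. Without it the KO mean was 0.251 FPKM against 0.203 FPKM in WT. Nr4a3 was at 0.207 FPKM in WT replicate 1 and at 0.0516 to 0.0755 FPKM in the other WT mice, and from 0.0474 to 0.274 FPKM in KO. Its highest mice were KO replicates 1 and 2 and WT replicate 1, so it did not follow the genotype.

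Of the sex steroid receptors, Esr1, the estrogen receptor alpha, was at 2.23 to 3.55 FPKM in WT and at 2.32 to 3.30 FPKM in KO, all KO mice within the WT range. Its log2 difference was -0.01 ± 0.12 with a 95% interval of -0.28 to 0.26 (limma). Pgr, the progesterone receptor, had 10 to 24 reads a library and means of 0.121 and 0.136 FPKM. Estrogen and progesterone targets had a positive difference in 4 of 8 tested, none past the threshold, with a median of 0.04. Prlr, the prolactin receptor, had means of 3.50 ± 1.10 and 2.22 ± 0.218 FPKM (adjusted p = 0.71), and Fkbp4, described above with the glucocorticoid receptor, had the next lowest p.

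Nuclear receptors act through coregulators that add or remove histone marks. None of 24 tested coregulators passed the threshold, 6 had a positive difference, and their median was -0.09 on the log2 scale, against 0.0018 without KO replicate 2. The mean of the 24 in KO replicate 2 differed by -0.32 from the WT mean on the log2 scale, whereas the other 7 mice lay between -0.05 and 0.03. Hdac3, the catalytic subunit of the NCoR and SMRT corepressor complexes, ranged from 13.4 to 14.0 FPKM in WT and from 11.3 to 12.7 FPKM in KO (adjusted p = 0.85, limma). On the scaled FPKM of the test its groups overlapped. Cited2, a binding partner of CBP and p300, had means of 59.5 ± 5.58 and 65.7 ± 6.26 FPKM (adjusted p = 0.86).

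**Figure D4:**
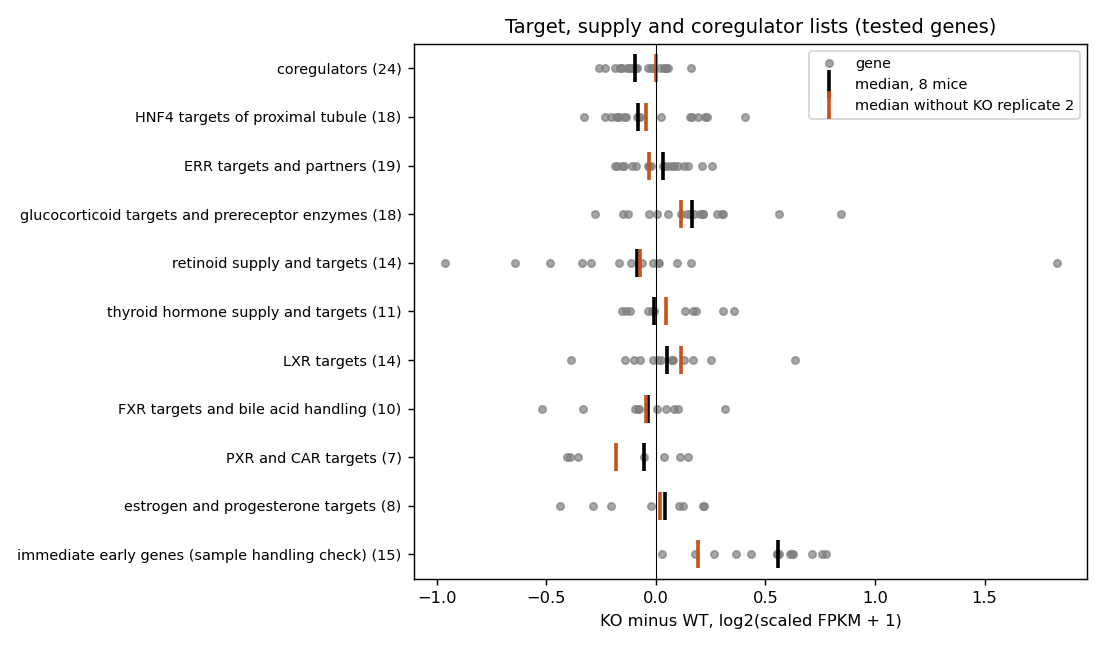
Difference KO minus WT of every tested gene (grey points) in each list of targets, supply genes and coregulators, on the log2(scaled FPKM + 1) scale, with the number tested in brackets and the list median as a black bar. The second bar is the median without KO replicate 2, which moves the coregulators from -0.09 to 0.0018 and the immediate early genes from 0.56 to 0.19.

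On the scaled values KO replicate 2 was the lowest of all 8 mice for 9 of the 24 tested receptors (37.5%, against 34.4% of all tested genes) and the highest for 2 (8.33%, against 32.1%). On the deposited FPKM it was the lowest for 13 (54.2%, against 42.5%) and the highest for 0 (against 24.4%). The receptors furthest below the other 7 mice were Nr2c2 (-1.37 on the log2 scale), Esrrb (-0.59), Hnf4a (-0.55), Rarg and Rarb (-0.49 each) and Nr1i2 (-0.41), and Nr1h4 was the furthest above (0.44). Only 1 of the 7 receptors in the longest class of genes, Nr2c2, lay below the median of its class, while 6 of 9 in the second shortest class did. Rora, with the greatest gene length of the 24, lay above the other mice (0.19). Without KO replicate 2, 4 of 24 receptors had an unadjusted p under 0.05 (Rxrb, Nr2f6, Nr1i2 and Esrrg), against 11.4% of all genes in that fit, and none passed the adjusted threshold.

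**Figure D5:**
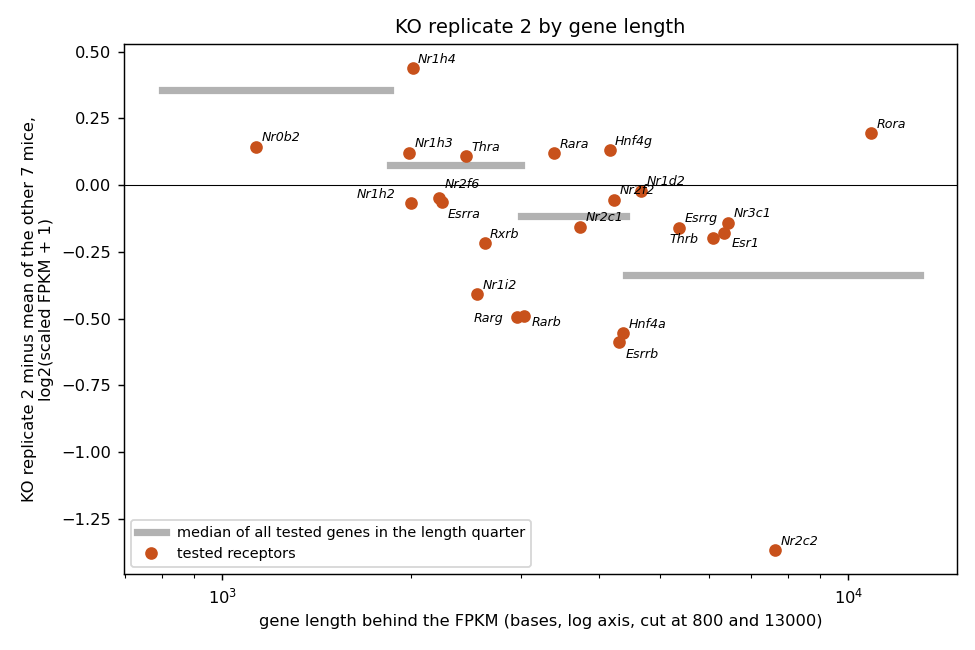
Difference of KO replicate 2 from the mean of the other 7 mice for the 24 tested receptors (points, log2(scaled FPKM + 1)) against the gene length behind the FPKM (bases, log axis), with the median of all tested genes in each of 4 length classes as a grey bar. The bars go from 0.36 in the shortest class to -0.34 in the longest, and Nr2c2 lies at -1.37.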

How the data were processed

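Poly-A RNA of 8 kidneys was sequenced, per the labels' protocols. The header of the single table the authors deposited names no unit. It was taken as FPKM from the size of the steps between its low values. Among the authors' tools, the submitters' processing notes list CASAVA, STAR 2.5, HTSeq 0.6.1 and DESeq2, and the build mm10. What each tool did, the annotation, the filters and any use of strand were not given in the sources used here. Reads were recovered from the FPKM steps: all 22945 genes above 0 gave whole reads within 0.002 at fitted lengths, 5865 at GENCODE M21 exon lengths, and 0 of 500 control genes with shifted totals. Lengths were searched over a wide range, so a fit is a weak check for genes seen in few libraries. The control genes all had a mean of at least 1 FPKM and do not cover the receptors under the filter. Recovered reads were 99.92% to 99.95% of the totals. Gene positions and exon overlaps are from M21 (mm10), which matched 34490 of 35275 identifiers. The annotation that was counted differs from M21 where the fitted length does. Promoter sequences are from RefSeq.

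Levels are deposited FPKM. The test was limma 3.58.1 (R 4.3.3, statmod 1.5.0) on log2 values of deposited FPKM after division by a library factor and addition of a pseudocount of 1, with trend and robust moderation, over genes with a mean of at least 1 FPKM, adjusted by Benjamini-Hochberg over all of them. Scaling factors were trimmed means of log ratios of the recovered reads and lay between 0.936 and 1.05. Replicates are separate mice. Read counts carry counting error only, as PCR copies were not marked.

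All receptors are named; of each of the 10 pathway lists and the immediate early list, the 2 genes with the lowest unadjusted p are named unless some passed the threshold. There were also 15 lists of cell type markers. The members and lists were chosen with earlier results of these data known. Promoter windows hold 250 bases before and 50 after a start.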

Additional observations from a re-analysis of the deposited data

Results flagged for a closer look

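In 5 of 68 receptor groups of 4 mice, 1 mouse lay far from the other 3, by the share of the group's range that separates it from its nearest neighbour. Chance gives about 1 in 20 groups if the 4 values come from 1 normal distribution. The share over all tested genes was not worked out, so the count has no background from these data. Hnf4a was at 201 FPKM in KO replicate 2 and at 313 to 327 FPKM in the other KO mice. Nr2c2 was at 0.896 FPKM in the same mouse and at 3.93 to 4.41 FPKM in the other KO mice. Nr2c2 was also high in WT replicate 1, at 4.89 FPKM against 3.78 to 3.84 FPKM in the other WT mice. Rxrb was at 43.0 FPKM in WT replicate 2, against 35.5 to 36.7 FPKM. Nr4a3 was at 0.207 FPKM in WT replicate 1, against 0.0516 to 0.0755 FPKM, from 24 reads. Of the 5, 2 were in KO replicate 2, the library that stood apart by gene length.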

How the results depend on the processing

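In 16 alternatives (scaling, filter, pseudocount, voom on recovered reads, array weights, moderation without trend, and each mouse left out), 12 of 24 tested receptors kept the sign of their difference in all and 12 changed it in at least 1, in 39 of 384 values. No receptor passed the threshold except Nr2f6 with array weights (log2 difference 0.42, adjusted p = 0.037), so that the count of receptors higher in KO went from 0 to 1. Genes of all kinds past the threshold were 2 higher and 3 lower; array weights gave 30 and 29. Leaving out 1 mouse gave 2 to 17 higher and 1 to 12 lower, with 9 and 12 without KO replicate 2 and 17 and 4 without KO replicate 3. Receptors whose groups do not overlap were 2 of 24 (8.33%, against 5.16% of all genes), 4 of 34 with no filter on low values (11.8% against 3.94%, Nr1i3 and Nr2e3 added), and 2 to 4 of 24 when 1 mouse was left out (8.33% to 16.7%, against 7.28% to 11.3%). No paired analysis was run, because the labels give an animal number but no litter for each mouse, and the replicate numbers are only names. The planned quasi-likelihood count test on recovered reads was not run; the voom fit is the one that uses those reads. Depth limits the low receptors: Nr1i3, Nr2e3, Nr5a2 and Rorb had at most 13 reads in any library.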

Other observations

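Some glucocorticoid and retinoid targets, chosen after their values were seen, differed more between mice of 1 genotype than their receptors did. Zbtb16, a strongly glucocorticoid-induced transcription factor, was at 4.80, 1.46, 3.29 and 9.45 FPKM in WT and at 4.79, 0.842, 2.32 and 7.18 FPKM in KO. Fkbp5, a cochaperone induced by the glucocorticoid receptor, was at 40.1, 22.6, 24.3 and 64.6 FPKM in WT and at 42.2, 24.3, 40.0 and 49.7 FPKM in KO. For both genes the highest mouse of each group was replicate 4 and the lowest replicate 2, whose numbers only name the mice, while Nr3c1 ranged from 11.4 to 16.1 FPKM over all mice with its highest value in WT replicate 1. Cyp26b1, an enzyme that degrades retinoic acid and is induced by it, was at 17.5 FPKM in WT replicate 1 and at 0.572 to 4.88 FPKM in the other 7 mice. WT replicate 1 also had the highest Rarb, at 4.31 FPKM, and KO replicate 2 had the lowest Cyp26b1 and the lowest Rarb, at 1.56 FPKM.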
